A study of Mus musculus with 2 samples.

Results

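The genes described here are 10 transcription factor genes of inhibitory neurons in mouse: Dlx1, Dlx2, Dlx5, Dlx6, Lhx6, Sp8, Sp9, Nkx2-1, Sox6 and Satb1. They were chosen by name and not by a threshold on a measured value, out of 21755 protein-coding genes outside the Y chromosome. For each gene, every DNase-seq peak, footprint and base with an FDR was read in the gene body and 50 kb on each side of it. The 2 linked Dlx pairs share their windows, so the 10 genes gave 8 windows of 1549860 bp in all.

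DNase-seq maps open chromatin by cutting accessible DNA with the enzyme DNase I. The study held 2 libraries, replicates 1 and 2 of a single group, from hippocampus, its layer not further named. The labels give the mice as B6CASTF1/J, an F1 hybrid of C57BL/6J and CAST/EiJ, as male and as 25 days old. No treatment or mutation is given. Both libraries share a donor entry but have separate biosample entries, so they cannot be taken as separate animals for certain. With 1 group there was nothing to test, and every value below is a description of these libraries.

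Inhibitory neurons of the hippocampus are born outside it, in the ganglionic eminences of the embryonic ventral forebrain, and migrate in. Dlx1, Dlx2, Dlx5 and Dlx6 are homeodomain factors that drive the GABA fate there; their genes lie in pairs that are transcribed towards each other, and enhancers active in forebrain interneurons are known between the genes of both pairs in mouse. Nkx2-1 specifies the medial eminence and activates Lhx6, a LIM homeodomain factor, and Sox6 and Satb1 act after Lhx6 in maturing parvalbumin and somatostatin interneurons. Sp8 and Sp9 are zinc finger factors of eminence progenitors and of interneurons. In adult tissue, inhibitory neurons are a minority among granule cells, pyramidal cells and glia, and Sox6 and Satb1 are also made by other cells.

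Replicate 1 had the longer lists: 93545 against 79144 peaks, 223251 against 170016 footprints, and 34758680 against 27654587 bases with an FDR under 0.05 in replicate 2. The sex label of replicate 2 did not match all of its data. Xist, the X inactivation RNA of female cells, had a promoter peak of 1.01 in replicate 2 and none in replicate 1, while 40 peaks lay on the Y chromosome in replicate 1 and 39 in replicate 2. Of the marker lists, 4 of 5 genes of granule and pyramidal cells had a promoter peak in both libraries, beside 63.2% of all protein-coding genes. It was 3 of 5 for astrocytes, 2 of 5 for oligodendrocyte precursors and 2 of 6 for inhibitory neurons (Gad1 and Pvalb). For choroid plexus it was 2 of 3, and for microglia and lymphocytes 0 of 4 each. The choroid plexus peaks were low, at 0.424 and 0.406 for Ttr and 0.657 and 0.464 for Kl in replicates 1 and 2. These short lists do not measure cell makeup. The part of the list lengths, or of the cell makeup of either library, in the results below was not tested. In a tissue sample, fewer cells of a type and less open chromatin per cell cannot be told apart.

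The places that the results turn on are shown first, as the C57BL/6J reference sequence (GRCm38.p6, the mm10 build, + strand), with the bases of a footprint of either library in capitals. A footprint is a short stretch protected from cutting inside open chromatin. The first set lies in or beside the Dlx pairs. The place between Dlx1 and Dlx2 (chr2:71540641-71540760, intergenic) and the places between Dlx6 and Dlx5 (chr6:6875051-6875350, intergenic, 300 bp of a 500 bp peak) and 2895 bp upstream of Dlx5 (chr6:6884861-6885100, intergenic) were open in replicate 1 alone. The place 34396 bp upstream of Dlx2 (chr2:71581061-71581240, intergenic) was the single peak of both Dlx windows that the libraries shared.
Dlx1-Dlx2 stretch: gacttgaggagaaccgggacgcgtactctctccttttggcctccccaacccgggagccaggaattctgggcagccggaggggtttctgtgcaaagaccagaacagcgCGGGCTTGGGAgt
Dlx2 upstream: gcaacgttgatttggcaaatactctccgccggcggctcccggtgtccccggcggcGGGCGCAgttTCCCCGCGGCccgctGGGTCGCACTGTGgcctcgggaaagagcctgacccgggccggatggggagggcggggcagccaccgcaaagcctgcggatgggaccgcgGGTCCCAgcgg
Dlx5-Dlx6 stretch: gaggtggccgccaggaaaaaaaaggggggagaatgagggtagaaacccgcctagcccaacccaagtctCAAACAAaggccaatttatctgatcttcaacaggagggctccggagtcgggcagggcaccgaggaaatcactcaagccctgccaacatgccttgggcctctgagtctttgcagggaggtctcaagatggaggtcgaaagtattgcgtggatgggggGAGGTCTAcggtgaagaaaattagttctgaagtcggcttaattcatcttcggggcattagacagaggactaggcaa
Dlx5 upstream: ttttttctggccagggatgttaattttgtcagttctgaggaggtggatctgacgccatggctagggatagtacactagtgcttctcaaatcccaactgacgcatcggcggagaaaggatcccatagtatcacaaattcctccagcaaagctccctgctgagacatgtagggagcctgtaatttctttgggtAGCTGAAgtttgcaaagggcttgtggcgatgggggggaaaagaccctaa

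The second set holds places open in both libraries near the other genes, cut to the bases that both peaks cover. They lie 7593 bp downstream of the nearest Sp8 start (chr12:118855118-118855240, intergenic), in an Sp9 intron (chr2:73278603-73278720), 4332 bp upstream of Nkx2-1 (chr12:56541161-56541320, where the antisense gene Gm26973 runs, partly over an exon of it), in a Sox6 intron 485 bp past an internal start (chr7:116033053-116033181) and downstream of the Sox6 gene (chr7:115453431-115453600, intergenic).
Sp8 downstream: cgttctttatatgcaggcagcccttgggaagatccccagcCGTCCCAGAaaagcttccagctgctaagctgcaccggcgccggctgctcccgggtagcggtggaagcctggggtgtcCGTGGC
Sp9 intron: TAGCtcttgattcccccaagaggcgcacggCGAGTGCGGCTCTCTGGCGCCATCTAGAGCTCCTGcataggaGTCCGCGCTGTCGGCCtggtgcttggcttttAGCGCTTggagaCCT
Nkx2-1 upstream: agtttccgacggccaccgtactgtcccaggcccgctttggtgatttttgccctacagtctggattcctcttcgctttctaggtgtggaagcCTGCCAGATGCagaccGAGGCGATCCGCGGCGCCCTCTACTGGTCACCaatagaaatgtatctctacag
Sox6 intron: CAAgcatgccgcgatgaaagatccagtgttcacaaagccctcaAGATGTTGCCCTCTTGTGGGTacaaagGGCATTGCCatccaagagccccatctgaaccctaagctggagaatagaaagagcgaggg
Sox6 downstream: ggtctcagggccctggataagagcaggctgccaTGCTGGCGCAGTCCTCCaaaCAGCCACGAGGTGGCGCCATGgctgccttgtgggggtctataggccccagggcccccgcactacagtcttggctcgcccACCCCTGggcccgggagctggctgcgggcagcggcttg

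Of the 10 genes, 9 had a promoter peak in replicate 1 and 4 had one in replicate 2, counting a peak within 1 kb of any annotated start of the gene (TSS). Among all protein-coding genes the shares were nearly level, 65.7% in replicate 1 and 64.5% in replicate 2. Dlx1, Sp8, Sox6 and Satb1 had a promoter peak in both libraries, 4 of 10, beside 63.2% of all genes. Dlx2, Dlx5, Dlx6, Sp9 and Nkx2-1 had one in replicate 1 alone, 5 of 10 beside 2.51% of all genes, and none had one in replicate 2 alone, beside 1.34% of all genes. Lhx6 had none in either library. Bases with an FDR under 0.05 lay in the promoter windows of the same 4 genes in both libraries, beside 64.1% of all genes. Which genes were called depended on the peak list. In the authors' shorter list, Dlx2 and Nkx2-1 had no promoter peak in either library. There, Dlx1 had one in replicate 2 alone, and Sp8, Sp9, Dlx5 and Dlx6 in replicate 1 alone. The share of all genes with a promoter peak in the shorter list is not given here.

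All promoter peaks of these genes were weak for a promoter. The peak value is the authors' signal at the peak, with a scaling that is not given, and the median over genes with a promoter peak was 2.17 in replicate 1 and 2.08 in replicate 2. The 9 values in replicate 1 ran from 0.537 for Nkx2-1 to 1.29 for Satb1, at percentiles 4.72 to 23.5 of genes with a promoter peak. The 4 values in replicate 2 ran from 0.342 for Dlx1 to 1.06 for Satb1, at percentiles 1.11 to 19.9. Of the 2716 genes whose value in replicate 1 lay in the range of these 9, 8.69% had no promoter peak in replicate 2, beside 5 of the 9. That range was set by the 9 values themselves, after they were seen. Dlx5 and Dlx6, both among the 5, share a window and are not separate observations. The part of weak signal in the missing peaks was not tested.

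**Figure D1:**
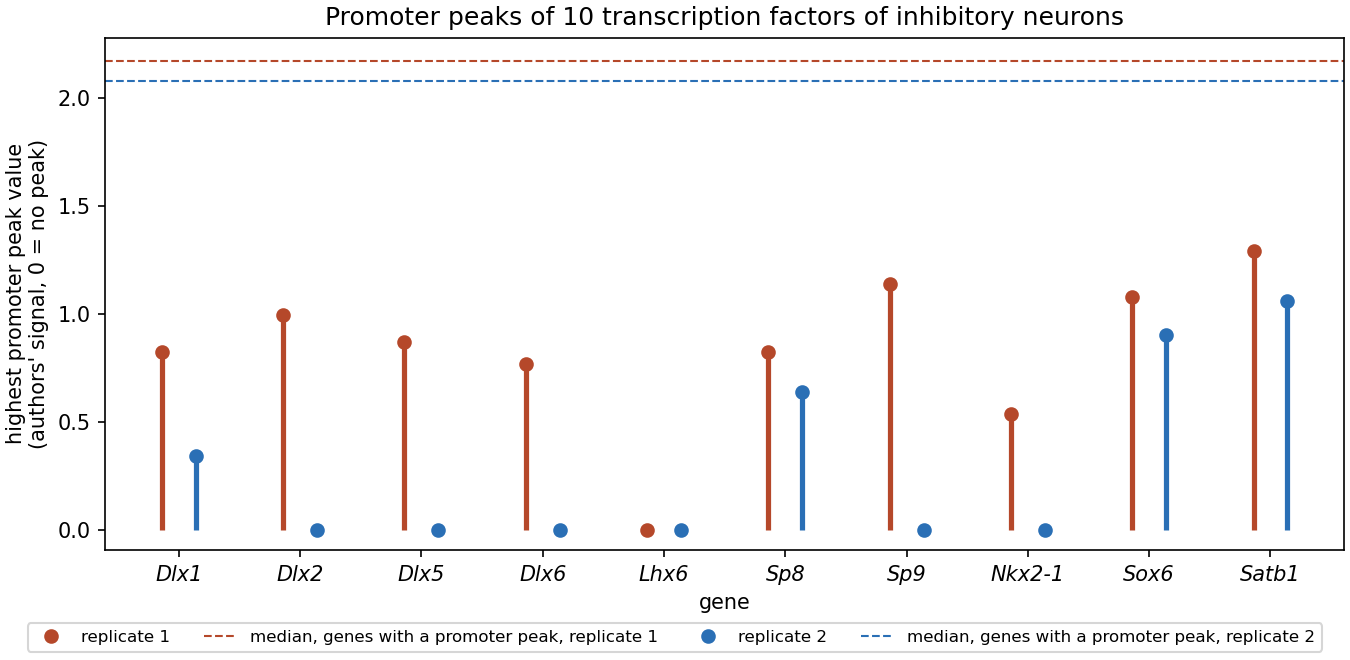
Highest peak value within 1 kb of a TSS for each of the 10 genes (y axis, authors' signal), in replicate 1 (red) and replicate 2 (blue); a point at 0 means no peak, and dashed lines mark the median over genes with a promoter peak, 2.17 and 2.08. Every point lies under the dashed line of its library, and 5 genes have a point above 0 in replicate 1 alone.

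Satb1, a chromatin organiser of maturing interneurons, had 1.29 in replicate 1 and 1.06 in replicate 2 (mean 1.18 ± 0.162, SD, n = 2). Sox6, an HMG box factor, had 1.08 and 0.902 (mean 0.992 ± 0.126), and Sp8 had 0.827 and 0.638 (mean 0.732 ± 0.133). The highest value was the larger one in replicate 1 in all 3 genes. For Sox6 and Sp8 it came from different peaks in the 2 libraries, so their SDs are not the spread at a single place. The Sox6 place of 1.08 in replicate 1 had 0.612 in replicate 2, and the Sp8 place of 0.827 had 0.561. Dlx1 had 0.827 and 0.342, again not at the same place: the peak of replicate 1 was 21 bp wide and lay beside an internal Dlx1 start (chr2:71529640-71529660), and that of replicate 2 lay near a start of the antisense gene Dlx1as (chr2:71527620-71527760). The place at Dlx1as was low by its value and far from the threshold by its FDR, 4.37e-40 at its lowest base, against 0.0334 for the peak of replicate 1. Dlx2 had 0.996 and no peak, Dlx5 0.869 and no peak, Dlx6 0.77 and no peak, Sp9 1.14 and no peak, and Nkx2-1 0.537 and no peak, in replicates 1 and 2.

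The share of promoter bases with an FDR under 0.05 gave a like picture. It was 81.6% for Sp9, 46.9% for Dlx5, 22.8% for Dlx6, 17.4% for Nkx2-1 and 15.8% for Dlx2 in replicate 1, and 0 for all 5 in replicate 2. Sp8 had 38.8% in replicate 1 and 12.5% in replicate 2. Sox6, with 23.6% and 27.6%, and Dlx1, with 1.46% and 3.62%, were the genes with the higher share in replicate 2, and Satb1 had 10.6% and 9.47%. Lhx6 had 0.138% in replicate 1, with a lowest FDR of 0.0447, and 0 in replicate 2. The median over all genes was 14% in replicate 1 and 12% in replicate 2.

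Around the genes, replicate 1 again held more. The 8 windows held 114 peaks in 102 separate places in replicate 1 and 52 in 50 places in replicate 2. Of these, 37 peaks of replicate 1 overlapped a peak of replicate 2, or 32.5% (95% exact interval 24.0 to 41.9%, counting error only), beside 59.8% of all its peaks. In replicate 2, 38 of 52 were shared, or 73.1% (59.0 to 84.4%), beside 71.7% of all its peaks. These intervals take peaks as independent, but the peaks cluster in 8 windows and some overlap each other, so no conclusion is drawn from them. The Dlx5-Dlx6 window alone gave 19 peaks of replicate 1, of which 0 were shared. Of the 77 unshared peaks of replicate 1, 3 held any base with an FDR under 0.05 in replicate 2; of the 14 unshared peaks of replicate 2, 7 did so in replicate 1. The unshared peaks had lower values, with a median of 0.509 against 0.756 for shared ones in replicate 1 and 0.373 against 0.625 in replicate 2.

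Footprints followed the peaks, with 265 in replicate 1 and 101 in replicate 2. Of these, 33 and 34 overlapped a footprint of the other library, or 12.5% and 33.7%, beside 30.0% and 39.4% of all footprints. They formed 35 overlapping pairs, of which 27 lay within 1 kb of a TSS of some gene and 1 had the same ends in both libraries. Away from any TSS, the 8 pairs fell at the shared places printed above: 2 each at the Nkx2-1, Sp9 and downstream Sox6 places, and 1 each at the Sp8 and Dlx2 places. The pair at the Dlx2 place had 1 base in common.

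By bases with an FDR under 0.05, each of the 10 genes had more in replicate 1, the library with more such bases in all. The genes of a Dlx pair share most of these bases. Of the lists of 16 genes described below, 16 patterning factors and 15 factors of excitatory neurons also had more in replicate 1. So did 13 other factors of inhibitory neurons and 11 GABA and interneuron genes. The share of all genes with more in replicate 1 was not counted. The median difference between the libraries over the 10 genes was 1.19 percentage points of the window, beside 0.182 over all genes. Dlx5, Dlx6, Sp9 and Sp8 lay at percentiles 98.9, 98.8, 98.6 and 96.4 of that difference, so the gap was wide there. Lhx6 and Sox6, at percentiles 43.0 and 46.3, differed between the libraries about as a usual gene did.

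**Figure D2:**
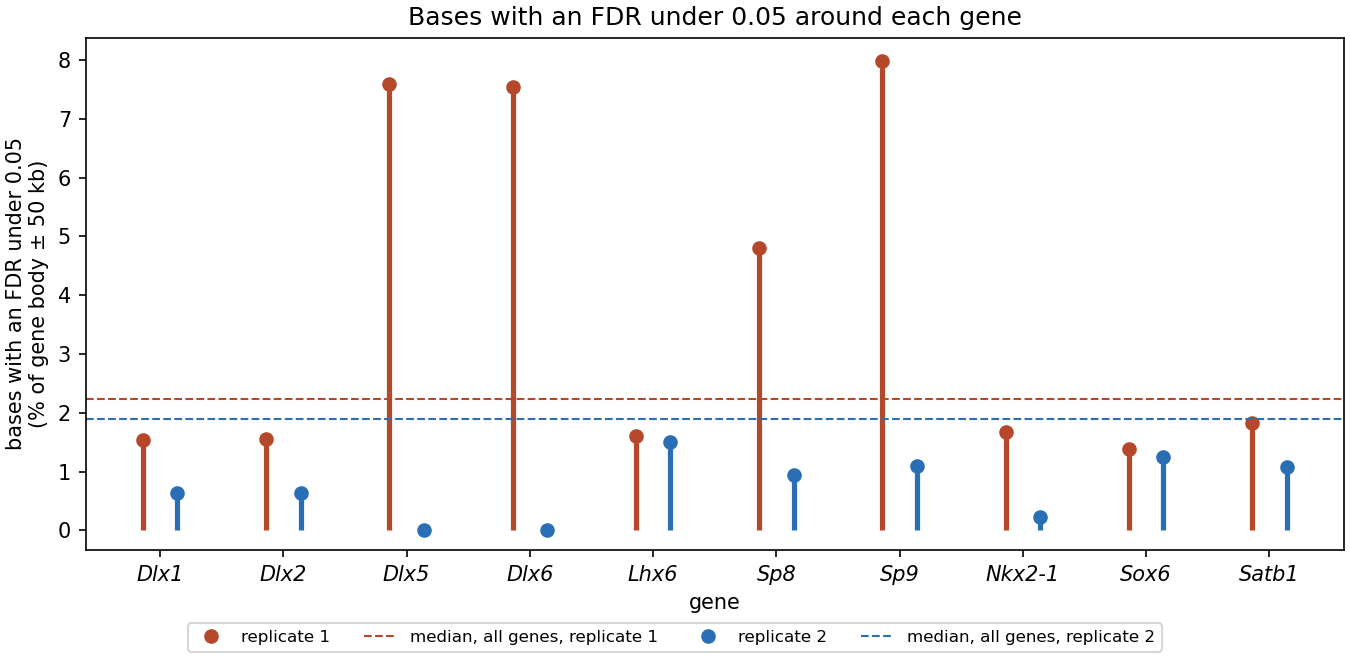
Percent of the bases of each gene body and 50 kb on each side with an FDR under 0.05 (y axis), in replicate 1 (red) and replicate 2 (blue); dashed lines mark the medians over all genes, 2.23% and 1.9%. Dlx5, Dlx6, Sp8 and Sp9 stand above the median of replicate 1, and all 10 genes lie under that of replicate 2 in replicate 2.

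The Dlx5-Dlx6 window differed most. It held 19 peaks in 17 places, 50 footprints and 7930 bases with an FDR under 0.05 in replicate 1, or 6.68% of the window. In replicate 2 it held no peak, no footprint and no such base. Of the peaks of replicate 1, 15 were matched in the authors' shorter peak list. Windows without any such base in replicate 2 were found for 1910 genes, or 8.78% of all, but their median in replicate 1 was 0, and Dlx5, at 7.6%, had the highest share in replicate 1 among all of them. The nearest peaks of replicate 2 outside the window had values of 2.39 and 2.38, and the gap between them was 377 kb long. Those of replicate 1 had 0.452 and 0.346 and lay 364 kb apart. Both lengths include the window itself (chr6:6813334-6932085), and outside it most of each gap lay on the Dlx6 side. On the Dlx5 side the next peak began close by, at 6942962 in replicate 1 and at 6955801 in replicate 2.

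The peaks of replicate 1 fell into groups along the pair. The strongest of the window was the printed place upstream of Dlx5, at 1.02 with a lowest FDR of 7.32e-14, and the next was 0.869 in a coding exon at the Dlx5 promoter, with 1.50e-12. The third strongest, at 0.82, was a 1080 bp peak with 13 footprints in an intron of Dlx6os1, a long noncoding RNA gene that overlaps Dlx6 on the other strand. Between the gene bodies (chr6:6868569-6877804, 9236 bp) lay 7 peaks in 6 places, with values of 0.269 to 0.502, together with 6 footprints and 2385 bases with an FDR under 0.05, or 25.8% of the stretch. The lowest FDR there was 6.91e-06, in the printed place. All 7 stood in the part of the stretch nearer to Dlx5.

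The Dlx1-Dlx2 window held 7 peaks in replicate 1 and 2 in replicate 2. The shared one was the printed place upstream of Dlx2, with values of 0.834 and 1.08 and lowest FDRs of 1.48e-05 and 1.52e-12 in replicates 1 and 2. It is rich in C and G, 73.3% with 22 CpG in 180 bp, and held 2 footprints in replicate 1 and 3 in replicate 2. The others of replicate 1 were 3 peaks in the Dlx2 gene, of 1.06, 0.996 and 0.912, the narrow Dlx1 peak, one of 0.459 in an intron of Metap1d, and 1 peak between the genes. That stretch (chr2:71533982-71543407, 9426 bp) held in replicate 1 the printed peak of 1.01, 4 footprints and 196 bases with an FDR under 0.05, or 2.08%, with a lowest FDR of 0.00412. In replicate 2 it held none of these.

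**Figure D3:**
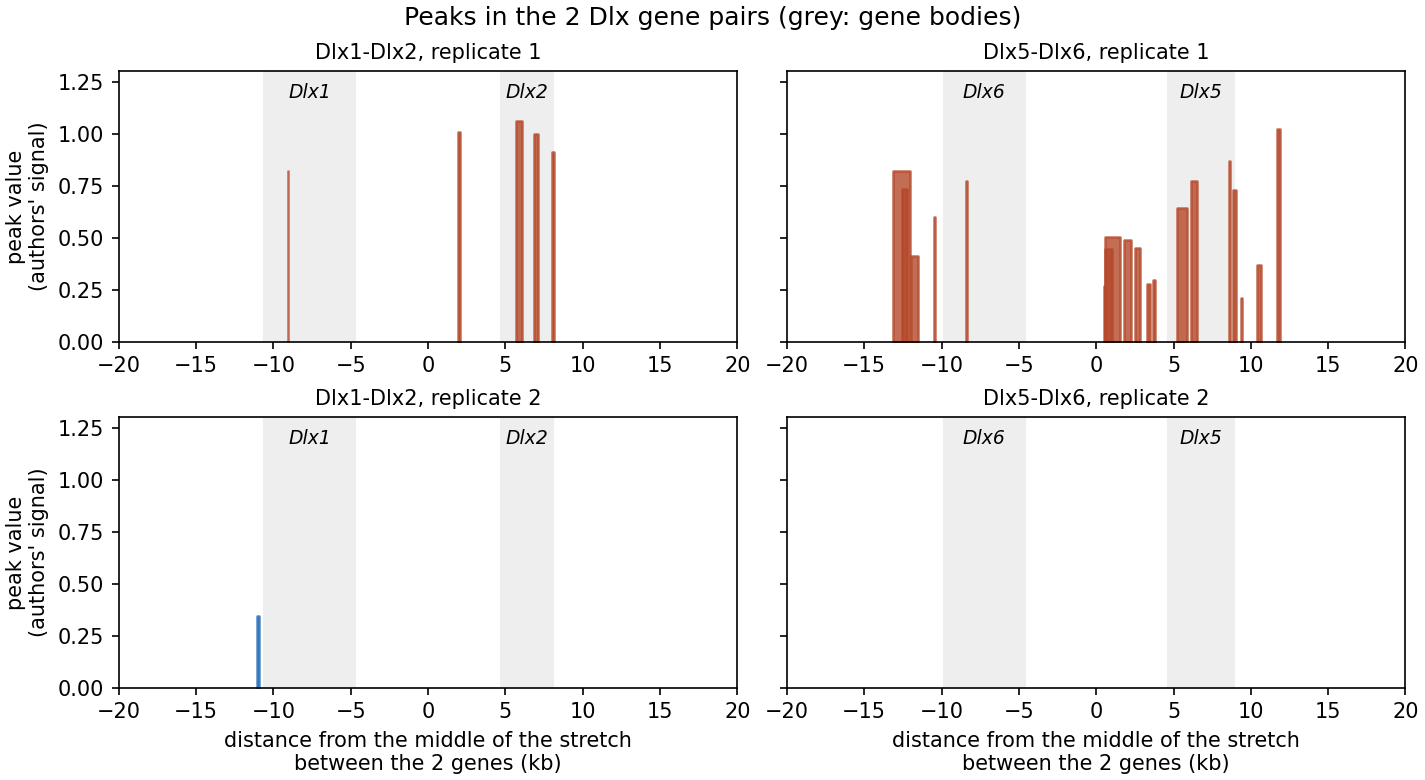
Peaks of the 2 Dlx pairs in replicate 1 (top, red) and replicate 2 (bottom, blue), by distance from the middle of the stretch between the genes (x axis, kb) and peak value (y axis, authors' signal); grey bands are the gene bodies. Replicate 1 has peaks at both Dlx5 and Dlx6 and between them, and replicate 2 has an empty panel at Dlx5-Dlx6 and a low peak beside Dlx1; the shared place upstream of Dlx2 lies outside the plot.

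Nkx2-1, Sp8 and Sp9 had most of their peaks in replicate 1 and a shared place outside the promoter. The Nkx2-1 window held 10 peaks in replicate 1 and 1 in replicate 2. The shared place upstream of Nkx2-1 had 1.57 and 1.68 in replicates 1 and 2, with lowest FDRs of 4.96e-08 and 1.23e-04, and was stronger than any peak at the Nkx2-1 gene itself. The strongest unshared peak was 0.608 in replicate 1, in an intron of Sfta3-ps, and the 4 promoter peaks reached 0.537. Across the gene body, 17.1% of bases had an FDR under 0.05 in replicate 1 and none in replicate 2.

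Sp8 had 17 peaks in replicate 1 and 7 in replicate 2, and all 7 of replicate 2 overlapped one of replicate 1. The strongest was the printed place downstream of the gene, at 0.933 and 0.948. The promoter peak in an intron had 0.827 and 0.561, a second in and beside a coding exon 0.692 and 0.638, and the strongest unshared peak was 0.558 in replicate 1, in a coding exon. Every one of the 1005 bases with an FDR under 0.05 in replicate 2 had one in replicate 1 as well, where 5109 bases did. Of the 17 Sp8 peaks of replicate 1, 6 were shared and 11 were not.

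Sp9 had 19 peaks in replicate 1 and 4 in replicate 2, of which 3 in each were shared. Of the shared places, the intronic one printed above had 1.89 and 1.66, and 2 lay at the promoters of the neighbours Cir1 and Scrn3, with 2.28 and 2.01 at the stronger and 0.94 and 0.645 at the weaker. In the Sp9 body, 46.5% of bases had an FDR under 0.05 in replicate 1 and 1.02% in replicate 2, and 13 peaks and 1 peak touched it. The strongest unshared peak, 1.35 in replicate 1, lay in an Sp9 intron. In replicate 2 the promoter and the rest of the gene held no peak. The intronic place had a lowest FDR of 1.95e-10 in replicate 1 and 0.00579 in replicate 2. It was in the authors' shorter peak list in replicate 1 alone. Its footprints covered 65 of 118 printed bases, and 1 footprint pair had 28 bases in common.

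**Figure D4:**
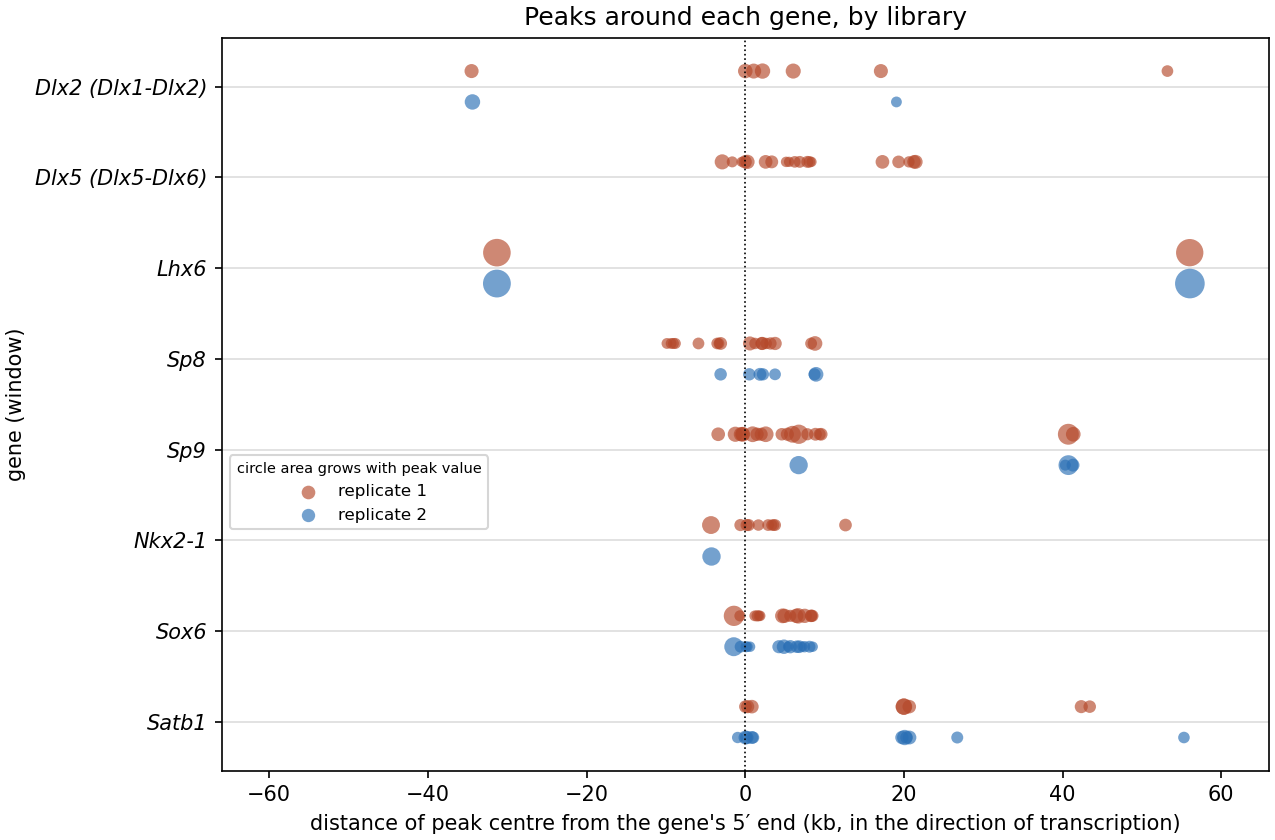
Peaks of each window by distance of the peak centre from the 5′ end of the gene (x axis, kb, in the direction of transcription; Dlx2 and Dlx5 are the zero points of the pairs), in replicate 1 (red, upper) and replicate 2 (blue, lower), with a larger circle for a higher peak value. Peaks farther out in the long Sox6 and Satb1 windows are not drawn. Replicate 2 has no circle in the Dlx5-Dlx6 row, while the Lhx6 row shows in both libraries the same 2 peaks far from the gene.

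Lhx6 had no peak in its body or promoter in either library. Its window held 2 peaks, both shared and both at promoters of other genes. One lay between Ndufa8 and Morn5, at 4.16 and 4.96 in replicates 1 and 2, and one at Rbm18, Mrrf and Gm13428, at 4.25 and 4.33. Ndufa8 encodes a subunit of mitochondrial complex I and Mrrf a mitochondrial ribosome recycling factor. These were the strongest peaks of all 8 windows, with lowest FDRs of 2.99e-33 and 2.52e-76 at the first. Of the Lhx6 body, 0.0341% had an FDR under 0.05 in replicate 1 and none in replicate 2.

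Sox6 and Satb1 had promoter peaks and most of their peaks in both libraries. Sox6, the longest of the genes at 567925 bp, had 30 peaks in replicate 1 and 24 in replicate 2, of which 18 and 17 were shared. The strongest, 2.13 and 1.81, lay in an intron of the neighbour 1110004F10Rik near its start. Next came the shared region at internal Sox6 starts, where the antisense gene Sox6os begins: its peaks reached 1.08 in replicate 1, against 0.612 at that place in replicate 2, and 0.954 against 0.902 at the place beside it. The strongest unshared peak was 0.488 in replicate 1, downstream of the gene. The printed Sox6 places were higher in replicate 2, with 0.523 and 0.703 in the intron and 0.502 and 0.715 downstream. Bases with an FDR under 0.05 came to 1.39% of the window in replicate 1 and 1.25% in replicate 2, and 72.8% of the first were found in the second.

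Satb1 had 10 peaks in replicate 1 and 12 in replicate 2, of which 6 and 7 were shared. Its strongest place, 1.29 and 1.06, was a promoter peak 1040 bp wide with 12 footprints in replicate 1. The other shared places were those at further Satb1 starts, among them one of 0.749 and 0.793 and one of 0.622 and 0.793, the last also near Gm6934, and one of 0.587 and 0.509 near the gene model C230085N15Rik inside Satb1. The strongest unshared peak was 0.715 in replicate 2, whose bases included some with an FDR under 0.05 in replicate 1. Satb1 was the window with more peaks in replicate 2 than in replicate 1, while the share of its bases with an FDR under 0.05 was 1.83% in replicate 1 and 1.08% in replicate 2. Of the Satb1 bases of replicate 1, 43.8% were found in replicate 2. At an FDR of at most 0.001 the share was 0.353% in replicate 1 and 0.0345% in replicate 2. The difference between the libraries in the Satb1 window lay at percentile 78.6 of all genes.

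Set beside 4 lists of 16 genes each, the 10 genes had counts closest to those of patterning factors of other brain regions. Of those 16, 7 had a promoter peak in both libraries and 6 in replicate 1 alone; Tlx3, with 1.43 and 0.844, and Pitx3, with 1.16 and 0.832, were highest, and Lmx1a had none. Other transcription factors of inhibitory neurons had one in both libraries in 12 of 16 and in replicate 1 alone in 2. Nr2f2, which is also made by other cell types, had 2.54 and 2.08 in replicates 1 and 2, and Gbx1 had none. Genes of GABA signalling and of interneuron classes gave 12 of 16 and 2 as well; Cnr1, the cannabinoid receptor, had 1.77 and 1.82, Kcnc1, a potassium channel of fast-spiking cells, 1.51 and 1.86, and Sst, the somatostatin gene, none. Transcription factors of excitatory neurons had 15 of 16 and 1, with Zbtb20 at 3.92 and 3.13 and Neurod6 lowest by the mean of the libraries at 0.968 and 0.973; the gene of this list with a peak in replicate 1 alone was Neurod2, at 2.12. No gene of the 4 lists had a promoter peak in replicate 2 alone.

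**Figure D5:**
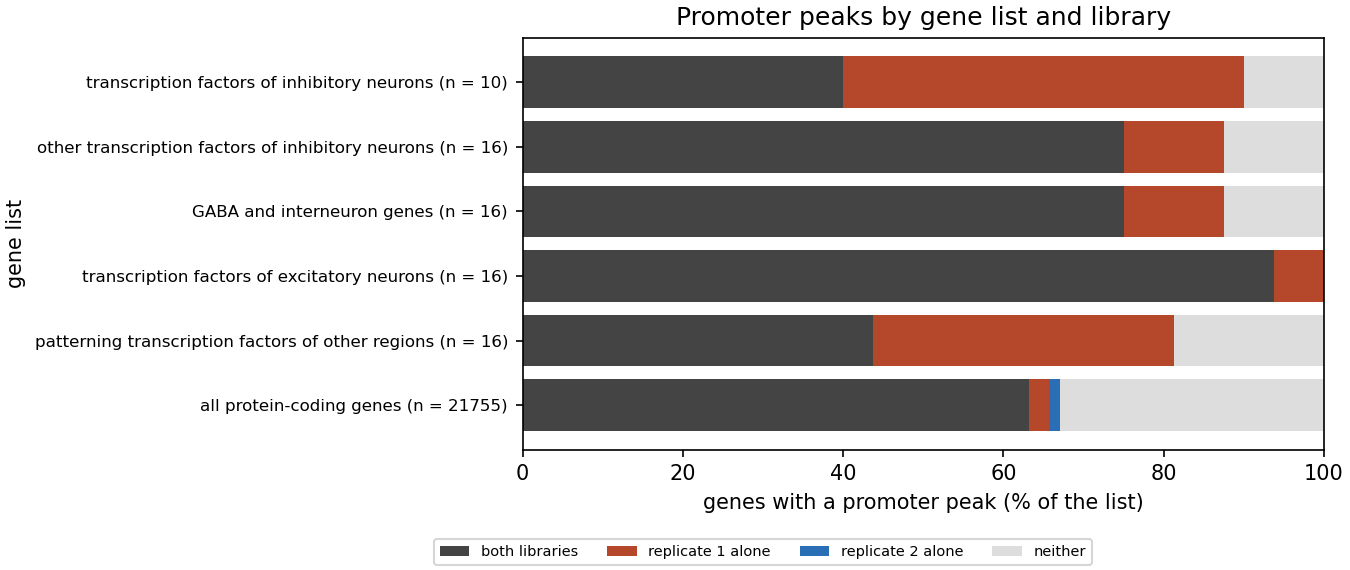
Share of genes with a promoter peak (x axis, % of the list) in both libraries (dark), in replicate 1 alone (red), in replicate 2 alone (blue) and in neither (light), for the 10 genes, 4 lists of 16 genes and all 21755 genes. The 10 genes have the widest red part, 5 of 10, followed by the patterning factors with 6 of 16; over all genes it is 2.51%.

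The median promoter value, with genes without a peak at 0, was 0.848 and 0 for the 10 genes in replicates 1 and 2, 0.678 and 0 for the patterning factors, 1.09 and 0.793 for the other factors of inhibitory neurons, 0.876 and 0.67 for the GABA and interneuron genes, and 1.68 and 1.33 for the factors of excitatory neurons. The median difference of the window share, replicate 1 minus replicate 2, was 1.19 for the 10 genes, 1.62 for the other factors of inhibitory neurons and 1.34 for those of excitatory neurons, in percentage points. It was 0.84 for the patterning factors and 0.162 for the GABA and interneuron genes. All 4 lists of transcription factors, the 10 genes among them, thus lay above the 0.182 of all genes, and the GABA and interneuron genes did not.

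The peaks around the 10 genes were rich in CpG. A 150 bp window around the peak centre held a median of 7.0 CpG in replicate 1 and 7.5 in replicate 2, beside 3.0 and 4.0 over all peaks. GGGCGG, the box bound by SP factors, was found on either strand in 21.1% of these windows in replicate 1 and 21.2% in replicate 2, beside 14.4% and 17.3% of all peaks. TAATTA, the core bound by homeodomain factors such as the Dlx proteins, was in 3 of 114 and 0 of 52, beside 1.54% and 1.66% of all peaks. ACAAAG (SOX) was in 9.65% and 11.5%, beside 9.65% and 9.56%, CAAGTG (NKX2) in 7.89% and 5.77%, beside 8.79% and 8.28%, and CAGATG (an E-box) in 13.2% and 11.5%, beside 14.9% and 14.8%. TGANTCA (AP-1) was in 1 of 114 and 2 of 52, beside 4.14% and 4.12%. No motif contains another, and a match is a description of the letters, not of a bound site. Among the printed places, a CAGATG upstream of Nkx2-1 lay wholly inside a footprint of replicate 1, and the footprint of replicate 2 there ended before its last base.

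RefSeq promoter sequences (GRCm38.p6, 250 bp before to 50 bp after a start) were matched for 8 of the 10 genes, and not for Dlx5 and Dlx6. Bases with an FDR under 0.05 covered the whole Sp9 promoter in replicate 1 and none of it in replicate 2. The promoter of Sp8 with the most CpG, 32, was covered to 92.0% in replicate 1 and 0 in replicate 2, and that of Dlx2, with 29, to 18.7% and 0. The promoter of Dlx1, with 27 CpG, and those of Nkx2-1 and Lhx6 held no such base in either library. Of the Sox6 promoters, that at an internal start (chr7:116030998-116031297) was covered whole in both, and the first Satb1 promoter to 24.0% and 51.7%. The median promoter held 14 CpG.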

How the data were processed

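DNase-seq of 2 libraries of 1 group was analysed. Per the file headers and file lists, the assembly was mm10 and each library's lists came from its own alignments. No source used here names the aligner, callers, filters or read depth, so precision per value is unknown and intervals cover counting error only. The peak value is the authors' signal, of unknown scaling, and was taken as deposited in each library. The p-values are FDRs that the authors gave to runs of bases, and bases under 0.05 are listed. The deposited footprint files hold a constant 0.01, which was not used.

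Genes and TSS came from GENCODE M21, sequence and promoters from RefSeq GRCm38.p6. The longer peak list was used; peaks were shared at 1 bp of overlap. Windows were gene bodies with 50 kb on each side, and promoters 1 kb on each side of any TSS. The overlap, coverage and motif code was tested on simulated data. No test was run, since there is 1 group. Members and lists were chosen with earlier results of these data known. The genes named are the 10 members, the 2 highest and 1 lowest of each list, genes with a TSS within 1 kb of a shared peak, and those at the strongest peaks; Metap1d was named after its value was seen. Some genes that this rule names are not reported here. The range of values used for weak promoters, and the counts of empty windows and shared footprints, were also added after the data were seen. Alternatives were the shorter list, promoters of 500 bp and 2.5 kb, protein-coding TSS, windows of 10 and 100 kb, a reciprocal overlap of 50%, an FDR of at most 0.001, motif windows of 300 bp and each library alone. Python 3.11.15, numpy, pandas, scipy and matplotlib were used.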

Additional observations from a re-analysis of the deposited data

How the results depend on the processing

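Of 144 alternative values, 110 stayed near the main one, within 1.5 times for a count and within the interval or spread for a share or level, and 34 moved. Among the 32 alternatives for the main results, 21 stayed and 11 moved. Some of the 110 were promoter values of 0, such as those of Lhx6, which a narrower promoter window could not raise. With the shorter peak list, 2 of the 10 genes, Sox6 and Satb1, had a promoter peak in both libraries, against 4 in the longer list. The lists of 16 fell as well, from 12 to 9 for other factors of inhibitory neurons and from 12 to 8 for GABA and interneuron genes. Factors of excitatory neurons fell from 15 to 13 and patterning factors from 7 to 3. The share of all genes in the shorter list is not given here. The windows then held 50 peaks in replicate 1 and 19 in replicate 2, against 114 and 52. Counting each library alone, 4 to 9 genes had a promoter peak. Promoter windows of 500 bp or 2.5 kb and starts of protein-coding transcripts left that count at 4. Windows of 100 kb on each side held 144 peaks in replicate 1 and 87 in replicate 2. Windows of 10 kb held 103 and 42. The step from 50 to 100 kb thus added no further excess of replicate 1. A reciprocal overlap of 50% lowered the shared part to 14.9% in replicate 1 and 32.7% in replicate 2, so most shared places differ in their ends. At an FDR of at most 0.001, 1.15% of window bases remained listed in replicate 1 and 0.468% in replicate 2, by construction fewer. In each library alone, the Dlx1-Dlx2 stretch held 0 to 1 place and the Dlx5-Dlx6 stretch 0 to 6. For a place open in both, the stricter overlap and the shorter list were tried, and each gave 0. Replicate 2 held no peak of the longer list and no base with an FDR under 0.05 there, so these values of 0 add nothing. No paired analysis was possible because there is 1 group. The number of DNase cuts behind a peak is not known, so a peak missing from a list was not detected in it rather than shown to be closed.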
